A study of Mus musculus with 24 samples.

Results

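Macrophages of adipose tissue fall into populations that can be told apart by the genes they express, and 10 genes widely used to mark them were followed here across genotype and sex. The genes were taken by name, with no threshold on their values in these libraries, and they are 10 of the 24421 gene symbols counted. Adgre1, which encodes the surface receptor F4/80, and Cd68, a lysosomal glycoprotein, mark macrophages in general. Mrc1 (the mannose receptor CD206), Cd163 (the haemoglobin-haptoglobin scavenger receptor), Lyve1 (a hyaluronan receptor) and Timd4 (a phosphatidylserine receptor, TIM-4) mark resident macrophages. Itgax (the integrin CD11c), Trem2 (a lipid-sensing receptor), Gpnmb (a glycoprotein of lysosomes and the cell surface) and Cd9 (a tetraspanin) mark lipid-associated macrophages.

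Resident macrophages lie around vessels and between adipocytes, take up debris, iron and hormones, and are largely maintained within the tissue. Lipid-associated macrophages gather around dying adipocytes, derive mainly from recruited monocytes, and carry genes for the uptake and lysosomal breakdown of lipid. None of the 10 genes is confined to its population. Dendritic cells and some lymphocytes also express Itgax, lymphatic endothelium expresses Lyve1, pigment cells express Gpnmb, and epithelial and many other cells express Cd9.

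Total RNA of adipose tissue was sequenced from C57BL/6 mice 2 months old. Groups were wild type (WT), or had phenylalanine (Y665F) or histidine (Y665H) in place of tyrosine Y665 of STAT5B, a transcription factor that acts downstream of growth hormone and cytokine receptors. There were 4 libraries per genotype and sex, or 6 groups and 24 libraries in all, and the comparisons ask how each substitution and sex relate to expression in this tissue. The fat depot, the zygosity of the mutants and whether each library came from its own animal are not given in the sources used here, so p-values measure the spread between libraries, which may be technical in part.

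With M standing for 1000000, depth was 21.0 to 41.3 M gene counts per library (median 34.6 M), and levels are counts per 1 M gene counts (CPM). A count of 0 allowed a level of up to 0.0726 to 0.143 CPM, taking 3 counts as the upper limit and covering counting error only. Adipocyte markers were high in all groups, with summed levels of the 10 listed genes between 5337 and 22027 CPM. Some libraries carried RNA of other tissues. The 8 epididymis genes summed to 1.30, 13176, 3927 and 1444 CPM in WT males 1 to 4, against 0.369 to 2.30 CPM in the 12 female libraries. They summed to 0.502 to 1086 CPM in Y665F males and to 2.11 to 1784 CPM in Y665H males. The 9 epithelial genes were highest in WT male 2 (1497 CPM) and Y665F female 3 (1459 CPM). The 12 skeletal muscle genes ranged from 94.7 to 918 CPM in WT females, from 31.8 to 178 CPM in Y665F females and from 23.3 to 1639 CPM in Y665H females. In females, the share of reads assigned to no gene was 32.5 to 35.9% in Y665F, 27.9 to 30.3% in WT and 24.8 to 29.9% in Y665H. The ribosomal gene Rn45s took 4.37 to 6.54%, 5.56 to 8.40% and 3.27 to 5.18% of gene counts in these 3 groups, so both shares moved with genotype, and their part in the female results was not tested. Because of the epididymal RNA, results that use WT males are also given without WT males 2 and 3. This pair had the highest epididymis sums, and the choice was made after seeing the data. WT male 4 and the mutant males were not left out for this reason.

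All 10 markers were counted in every library, and the lowest level was 1.41 CPM, for Timd4 in WT male 2. Because long transcripts give more reads, levels were compared between genes per kilobase of the longest protein-coding transcript. In WT females, Cd163 was highest at 38.5 ± 10.5 CPM per kb (SD, n = 4), followed by Mrc1 at 34.3 ± 2.52 CPM per kb and Cd9 at 23.6 ± 6.44 CPM per kb. Itgax was lowest at 1.43 ± 0.372 CPM per kb, below Timd4 at 2.34 ± 0.198 CPM per kb and Gpnmb at 2.68 ± 1.21 CPM per kb. In WT males Cd9 had the highest mean, 44.3 ± 32.2 CPM per kb, but it was 22.8 and 33.2 CPM per kb in WT males 1 and 4, where Cd68, at 30.1 to 49.3 CPM per kb, had the highest mean. Gpnmb, the eighth in females, was at 24.5 ± 17.2 CPM per kb in WT males. Neighbours in these orders mostly lay within their SDs of each other, as Cd163 and Mrc1 did in females and Cd68 (30.8 ± 13.2 CPM per kb) and Mrc1 (26.7 ± 9.96 CPM per kb) did in males.

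**Figure D1:**
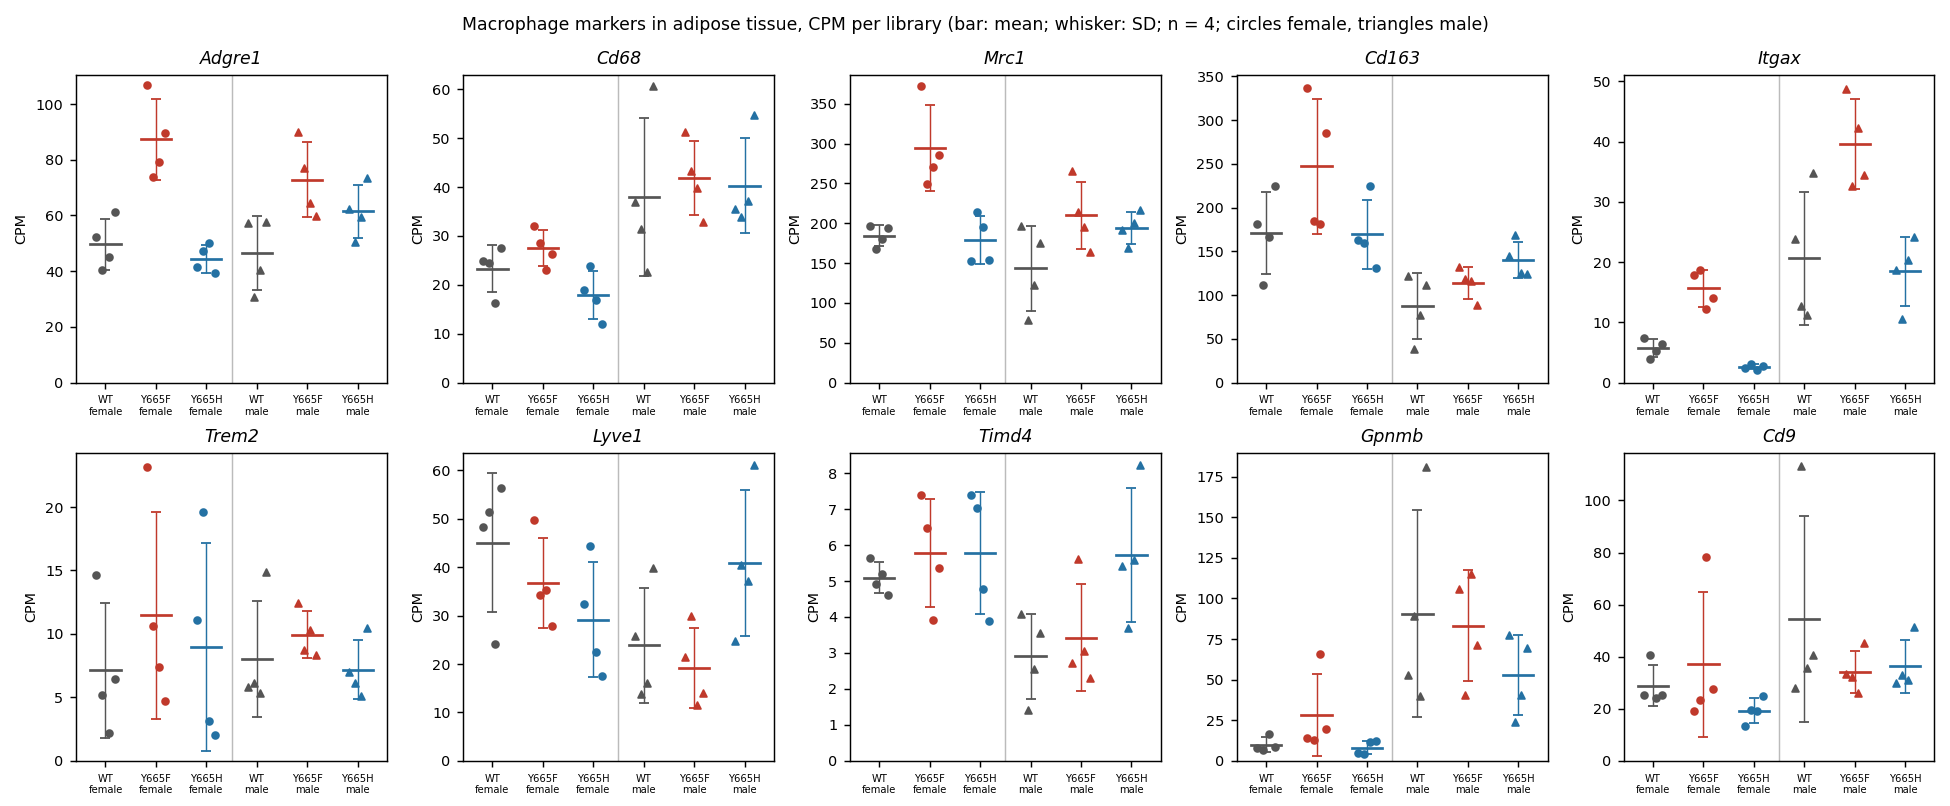
Level of each of the 10 macrophage markers in CPM (linear vertical axes from 0) in the 24 libraries, grouped by genotype and sex; points are libraries, bars are means and whiskers are SD over 4 libraries. Itgax separates the 3 female genotypes without overlap, whereas Trem2 spreads from 2.02 to 23.2 CPM within the female libraries.

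Itgax was the marker that differed most clearly between genotypes. In females its level was 7.46, 3.97, 5.27 and 6.42 CPM in the 4 WT libraries, 17.8, 18.6, 12.2 and 14.0 CPM in the Y665F libraries, and 2.48, 3.16, 2.15 and 2.70 CPM in the Y665H libraries. The 3 female groups did not overlap, with Y665F highest and Y665H lowest. In males Itgax was at 23.7, 12.7, 11.2 and 34.8 CPM in WT, at 48.8, 32.6, 42.3 and 34.5 CPM in Y665F, and at 18.8, 10.6, 20.3 and 24.2 CPM in Y665H. The Y665F males lay above all Y665H males, while WT males overlapped both mutants.

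Itgax lies on mouse chromosome 7 (chr7:128129547-128150657, plus strand, GRCm38), and Gpnmb, the marker with the largest sex difference, on chromosome 6 (chr6:49036546-49070929, plus strand). The 250 bases upstream of the RefSeq start site (GRCm38.p6) are shown for these genes because their RNA levels separated the groups. They span chr7:128129300-128129549 and chr6:49036268-49036517 on the plus strand and are written 5′ to 3′, with matches to the letters GGAAGT on either strand in capitals.
Itgax: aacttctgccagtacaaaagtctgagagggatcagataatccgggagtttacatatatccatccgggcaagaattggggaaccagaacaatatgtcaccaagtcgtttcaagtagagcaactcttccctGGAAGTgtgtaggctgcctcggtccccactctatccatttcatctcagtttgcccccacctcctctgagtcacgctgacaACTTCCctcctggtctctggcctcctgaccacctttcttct
Gpnmb: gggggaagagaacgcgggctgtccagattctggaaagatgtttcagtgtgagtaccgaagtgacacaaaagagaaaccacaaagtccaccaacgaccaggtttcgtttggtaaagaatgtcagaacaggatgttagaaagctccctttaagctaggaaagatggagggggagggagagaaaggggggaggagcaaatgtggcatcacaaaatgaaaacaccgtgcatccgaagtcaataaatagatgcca
The STAT-type motif TTCNNNGAA, the longer ETS-type motif GAGGAAGT and the E-box CACGTG had no match on either strand in the windows of the 8 markers with a RefSeq entry, which lack Adgre1 and Lyve1. Those motifs occurred in 7.02%, 2.44% and 6.02% of 32851 such promoter windows. GGAAGT, the core of the ETS-type motif and contained in it, was searched after the other 3 gave no match. It occurred 2 times upstream of Itgax, 1 time upstream of Mrc1 and 1 time upstream of Timd4, and in 19.7% of all windows. A match is a string of letters only, and a missing match says only that these letters are not in the window.

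In Y665F females compared with WT females, Itgax rose and the general marker Adgre1 and the resident marker Mrc1 lay above WT in every library without passing the threshold. Adgre1 was at 106.8, 73.7, 79.4 and 89.6 CPM in Y665F females and at 52.4, 40.3, 45.0 and 61.1 CPM in WT females. Mrc1 was at 371.9, 249.6, 270.3 and 285.0 CPM against 196.1, 167.1, 180.4 and 194.4 CPM. For these 2 and Itgax the groups did not overlap, which makes 3 of 10 markers against 20.6% of 14040 genes averaging 1 CPM or more. Differences were tested with the quasi-likelihood test of edgeR on the counts, with Benjamini-Hochberg adjustment over all genes tested, and genes whose adjusted p was under 0.05 are described as called. Of the 10 markers 1 was called, against 3.33% of the 15642 genes tested, and 4, all higher, had an unadjusted p under 0.05, against 26.3% of all genes. Itgax was 2.49-fold higher (log2 fold change 1.31, SE 0.22, adjusted p = 0.0251 by edgeR). Adgre1 was at a log2 fold change of 0.68 (SE 0.16, adjusted p = 0.0545 by edgeR) and Mrc1 at 0.54 (SE 0.13, adjusted p = 0.0630 by edgeR). DESeq2 called all 3, among 2047 genes called in all. Over the 10 markers the median log2 fold change was 0.47, against 0.02 over all genes tested. In bulk tissue, more cells of a type and more RNA per cell cannot be told apart.

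The call of Itgax in Y665F females was lost in 7 of 8 fits that left out 1 library. Calls over all genes fell in those fits too, from 521 to between 67 and 247. The log2 fold change of Itgax stayed between 1.17 and 1.45 when single libraries were left out. Its adjusted p by edgeR was 0.0514 to 0.0772 without any 1 of the 4 WT females or of Y665F females 1, 2 and 4. Without Y665F female 3, the library rich in epithelial RNA, it was 0.0107, and Adgre1 (0.0391) and Mrc1 (0.0454) were then also called by edgeR. Calls over all genes rose as well in that fit, from 521 to 747.

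The other lipid-associated markers overlapped between Y665F and WT females. Gpnmb was at 14.3, 13.1, 65.6 and 19.7 CPM in Y665F females and at 7.92, 6.77, 16.6 and 8.50 CPM in WT females. Its log2 fold change of 1.34 (SE 0.54, adjusted p = 0.163 by edgeR) was 0.54 without Y665F female 3. Cd9 was at 19.3, 23.2, 78.5 and 27.4 CPM in Y665F females and at 24.2 to 40.8 CPM in WT females, and again the single high value was that of Y665F female 3. Trem2 ranged from 4.72 to 23.2 CPM in Y665F females and from 2.20 to 14.7 CPM in WT females. Cd68, Cd163, Lyve1 and Timd4 overlapped between these groups as well.

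The other macrophage genes gave few calls in this comparison. Of 18 further macrophage genes 17 were above WT, with a median log2 fold change of 0.50, and 1 was called, the pore-forming protein gene Mpeg1 (log2 fold change 1.08, SE 0.17, adjusted p = 0.0201 by edgeR). None of 14 further resident genes was called by edgeR, although 6 had an unadjusted p under 0.05, against 26.3% of all genes. Without Y665F female 3 the counts called in these 2 lists were 4 and 3, among 747 genes called in all, against 521 with it. Of 16 further lipid-associated genes 1 rose and 1 fell. The cathepsin gene Ctss rose (log2 fold change 1.18, SE 0.20, adjusted p = 0.0245 by edgeR) and Acp5, a phosphatase gene of macrophages and osteoclasts, fell (log2 fold change -1.31, SE 0.18, adjusted p = 0.0150 by edgeR). Among 9 tested genes for macrophage growth factors and recruitment, the chemokine receptor gene Ccr2 rose (log2 fold change 1.04, SE 0.23, adjusted p = 0.0467 by edgeR). These calls of Ctss and Ccr2 were each lost in 7 of 8 fits that left out 1 library, that of Mpeg1 in 4 and that of Acp5 in 2. The 8 fits called 67 to 747 genes in all, against 521 with every library kept.

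Markers of other immune cells moved alongside. The summed level of 12 T and NK cell genes was 31.4 to 44.7 CPM in Y665F females and 9.57 to 13.0 CPM in WT females, and 9 of the 12 were called higher. The 8 B cell genes summed to 20.2 to 30.9 CPM against 7.96 to 13.1 CPM, with 2 called higher. The 9 dendritic cell genes summed to 87.2 to 105.4 CPM against 86.6 to 135.1 CPM, and of these Flt3, a receptor of dendritic cell precursors, rose (log2 fold change 0.95, SE 0.15, adjusted p = 0.0209 by edgeR) and Fscn1 fell, calls that were lost in 5 and 7 of 8 such fits. Gene by gene, 7 of these 9 were higher, with a median log2 fold change of 0.49 over the 9. Of the 7, 5 had an unadjusted p under 0.05, against 26.3% of all genes. Their mean log2(CPM + 1) was 2.54 to 2.89 in Y665F females and 2.34 to 2.49 in WT females, without overlap. Zbtb46, a transcription factor gene of conventional dendritic cells named here after its values were seen, was at 15.9 to 23.6 CPM in Y665F females and at 14.8 to 18.4 CPM in WT females. Of 6 monocyte genes tested 5 were higher, with a median log2 fold change of 0.63 and 1 called. The 10 adipocyte genes were all lower, with a median of -0.38, and the 12 muscle genes were all lower, with a median of -3.94, 11 of them at an unadjusted p under 0.05. Of the 9 epithelial genes 8 were higher, with a median of 2.59. None of the adipocyte, muscle or epithelial genes was called by edgeR. The part of these cells in the marker differences was not tested.

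**Figure D2:**
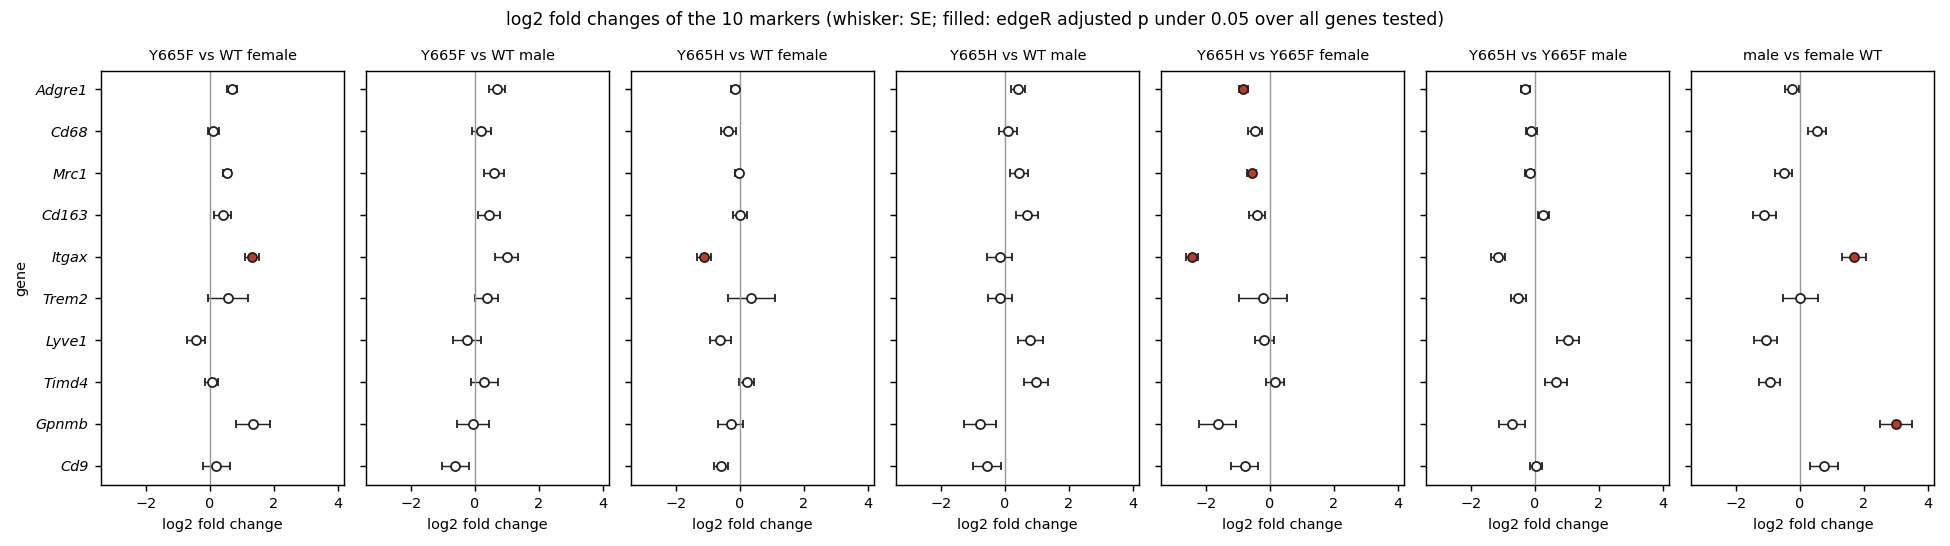
Log2 fold changes (horizontal axis) of the 10 markers in 7 comparisons; the first group named is the numerator, whiskers are SE and filled points had an edgeR adjusted p under 0.05 over all genes tested. Itgax is filled in 4 of the 7 panels and Gpnmb in 1.

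In Y665F males compared with WT males, Adgre1 and Itgax were again above WT on average, and no marker was called from the libraries of these groups alone. Adgre1 was at 89.9, 76.9, 64.6 and 59.7 CPM in Y665F males and at 57.2, 30.8, 40.3 and 57.6 CPM in WT males, and the groups did not overlap. It was the 1 marker of 10 separated upward, against 5.44% of 15299 genes averaging 1 CPM or more. On the 8 libraries of these groups, none of the 10 markers was called by edgeR or by DESeq2. Of 16240 genes 0% were called by edgeR, and DESeq2 called 1141 genes in all. At an unadjusted p under 0.05 there were 2 markers, both higher, against 17.1% of all genes. Adgre1 was at a log2 fold change of 0.70 (SE 0.24, adjusted p = 0.252 by edgeR) and Itgax at 0.99 (SE 0.37, adjusted p = 0.257 by edgeR). Without WT males 2 and 3 these values were 0.42 and 0.52. With all 24 libraries in 1 edgeR fit both were called, Adgre1 at an adjusted p of 0.0210 and Itgax at 0.0291, among 2261 genes called in all. Of the 18 further macrophage genes 16 were above WT and 9 had an unadjusted p under 0.05, but none was called by edgeR. The T and NK cell genes summed to 39.2 to 75.2 CPM in Y665F males and to 12.9 to 129.6 CPM in WT males, where 129.6 CPM belonged to 1 library. Of these 12 genes 11 were higher in Y665F males, all 11 at an unadjusted p under 0.05, the other was lower at that p, and none was called by edgeR. Their median log2 fold change was 1.93, and 2.05 without WT males 2 and 3. Their mean log2(CPM + 1) was 1.97 to 2.66 in Y665F males and 0.98 to 1.496 in WT males, without overlap, and their part in the Itgax difference was not tested. The difference between the sexes in the Y665F effect was tested as an interaction on 16 libraries. It was called for none of the 10 markers by edgeR or DESeq2, and none had an unadjusted p under 0.05 by edgeR. Over 16732 genes the shares by edgeR were 0% and 21.8%, and DESeq2 called 1193 genes in all.

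Y665H females had less Itgax RNA than WT females, and the other markers gave no call. The highest Itgax value in Y665H females, 3.16 CPM, lay below the lowest in WT females, 3.97 CPM. Itgax was the 1 marker of 10 separated in this way, against 6.97% of 13709 genes averaging 1 CPM or more. Of the 10 markers 1 was called, against 3.34% of 15469 genes, and 2, both lower, had an unadjusted p under 0.05, against 23.8% of all genes. The change in Itgax was a log2 fold change of -1.12 (SE 0.21, adjusted p = 0.0304 by edgeR). The call was lost (adjusted p 0.0615 to 0.112 by edgeR) without WT female 1 or 4 or Y665H female 1, 3 or 4, while the log2 fold change stayed between -1.26 and -0.98. It was also lost with all 24 libraries in 1 fit (adjusted p = 0.0636 by edgeR) and with the replicate number as a block (adjusted p = 0.0745 by edgeR). Calls over all genes, 516 in the main fit, were 20 to 141 without those single libraries. They were 250 with all 24 libraries and 32 with the block. Cd9 was at 13.4, 19.6, 19.0 and 25.0 CPM in Y665H females and at 25.3, 40.8, 24.2 and 25.4 CPM in WT females, with 1 Y665H library inside the WT range. Its log2 fold change was -0.59 (SE 0.21, adjusted p = 0.138 by edgeR), and -0.36 without WT female 2. Adgre1 at 39.2 to 50.1 CPM, Mrc1 at 152.5 to 213.5 CPM and Cd163 at 130.5 to 224.5 CPM in Y665H females overlapped the WT ranges of 40.3 to 61.1, 167.1 to 196.1 and 112.0 to 224.5 CPM.

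Few of the listed macrophage genes were called between Y665H and WT females. None of the 18 further macrophage genes was called by edgeR, with 3 lower at an unadjusted p under 0.05, against 23.8% of all genes in either direction. Of the resident genes 1 fell, Retnla, which encodes a secreted protein of alternatively activated macrophages (log2 fold change -1.03, SE 0.18, adjusted p = 0.0248 by edgeR). Csf2ra, the alpha chain of the GM-CSF receptor, fell (log2 fold change -0.83, SE 0.17, adjusted p = 0.0379 by edgeR). Among other cell types, Batf3, a transcription factor gene of dendritic cells, fell, with a log2 fold change of -0.93 (SE 0.21, adjusted p = 0.0486 by edgeR). The T and NK cell genes split, with 6 of 11 tested higher and 5 lower and a median log2 fold change of 0.31. Those called were Nkg7 and Gzmb, both lower. The calls of Retnla, Csf2ra, Batf3, Nkg7 and Gzmb were lost in 5, 6, 7, 5 and 7 of 8 fits that left out 1 library. Those 8 fits called 20 to 1269 genes in all, against 516 with every library kept. Of the 10 adipocyte genes 6 were higher and 4 lower, with a median log2 fold change of 0.14. Cfd and Adig were called higher and Lep lower. The 10 genes summed to 19618 to 22027 CPM in Y665H females and to 14621 to 18516 CPM in WT females, without overlap. The part of these other cells in the Itgax difference was not tested.

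Among males, the resident markers lay above WT on average in Y665H libraries, mostly with overlap and without a call. Timd4 was at 5.41, 3.70, 5.59 and 8.22 CPM in Y665H males and at 4.09, 1.41, 2.56 and 3.56 CPM in WT males, and the groups overlapped through 1 library. Its log2 fold change was 0.97 (SE 0.38, adjusted p = 0.402 by edgeR), and 0.59 without WT males 2 and 3. Cd163 did not overlap, with 144.2, 168.3, 125.5 and 124.3 CPM in Y665H males and 121.6, 38.9, 77.6 and 111.2 CPM in WT males. It was the 1 marker of 10 separated upward, against 2.49% of 15204 genes averaging 1 CPM or more. Lyve1 was at 24.7 to 61.1 CPM in Y665H males and at 13.7 to 39.9 CPM in WT males. Mrc1 was at 168.7 to 216.6 CPM against 77.9 to 196.6 CPM, and both overlapped. The median log2 fold change of the 4 resident markers was 0.74, and 0.34 without WT males 2 and 3. None of the 10 markers was called by edgeR or DESeq2, against 0% of 16406 genes by edgeR and 119 genes by DESeq2. Timd4 was the 1 marker with an unadjusted p under 0.05 by edgeR, against 11.4% of all genes. The 14 further resident genes all lay above WT with a median log2 fold change of 0.38, which was 0.22 without WT males 2 and 3, and none was called by edgeR, with 4 at an unadjusted p under 0.05. Other lists lay above WT as well, with 15 of the 18 general macrophage genes (median log2 fold change 0.35), 8 of 10 adipocyte genes (0.43) and 6 of 8 fibroblast genes (0.39), none of them called by edgeR. Without WT males 2 and 3 these medians were 0.09, 0.13 and 0.32. The adipocyte genes summed to 13224 to 16886 CPM in Y665H males and to 5337 to 14306 CPM in WT males, where 5337 CPM was WT male 2. The part of these differences in the resident marker values was not tested.

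The interaction for Y665H gave no called marker either. It was called for 0 of the 10 markers by edgeR and by DESeq2, against 0.0119% of 16827 genes by edgeR and 717 genes by DESeq2. At an unadjusted p under 0.05 there were 2 markers, against 18.3% of all genes. The interaction estimate of Lyve1 was 1.40 on the log2 scale (male minus female, SE 0.53, adjusted p = 0.213 by edgeR) and that of Itgax 0.97 (SE 0.45, adjusted p = 0.272 by edgeR). Without WT males 2 and 3 they were 0.98 and 0.49.

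In females the 2 substitutions differed from each other in Adgre1, Mrc1 and Itgax, 1 marker each of the general, resident and lipid-associated classes. Itgax was 12.2 to 18.6 CPM in Y665F females and 2.15 to 3.16 CPM in Y665H females, and Adgre1 was 73.7 to 106.8 CPM against 39.2 to 50.1 CPM. Mrc1 was 249.6 to 371.9 CPM against 152.5 to 213.5 CPM, and Gpnmb 13.1 to 65.6 CPM against 4.14 to 12.0 CPM. For these 4 markers the mutants did not overlap, 4 of 10 against 21.5% of 14013 genes. Of the 10 markers 3 were called, all lower in Y665H, against 17.4% of 15493 genes. Cd68, Cd163, Lyve1, Timd4, Trem2 and Cd9 overlapped between the mutants and were not called (adjusted p 0.157 to 0.871 by edgeR). The log2 fold change of Itgax was -2.44 (SE 0.19, adjusted p = 0.00148 by edgeR), that of Adgre1 was -0.83 (SE 0.13, adjusted p = 0.00517) and that of Mrc1 was -0.58 (SE 0.15, adjusted p = 0.0360). Itgax and Adgre1 stayed called by edgeR in all 8 fits that left out 1 library. Mrc1 was not called without Y665F female 1 or 4 or Y665H female 1, 3 or 4 (adjusted p 0.0680 to 0.0986 by edgeR). Those fits called 1554 to 2110 genes in all, against 2689 with every library kept. Gpnmb was at a log2 fold change of -1.64 (SE 0.58, adjusted p = 0.0867 by edgeR), and at -0.83 without Y665F female 3.

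Most of the general macrophage genes were also lower in Y665H than in Y665F females. Of the 18 further macrophage genes 11 were called lower and none higher, with a median log2 fold change of -0.76 against -0.03 over all genes. Mpeg1 fell by 1.16, the lysozyme gene Lyz2 by 1.27, Aif1 (the actin-binding protein IBA1) by 0.88 and Cybb (an NADPH oxidase subunit) by 0.79 on the log2 scale. Of the 14 resident genes 2 fell, Retnla by 1.95 and the lectin gene Mgl2 by 1.01. The lipid-associated genes did not move one way, since 4 of the 15 tested were called higher in Y665H and 3 lower. Ctss fell by 1.26 and the elastase gene Mmp12 by 4.00, whereas Acp5 was higher by 1.26 and Plin2, a lipid droplet coat gene that adipocytes also express, by 0.62. Of 9 growth factor and recruitment genes 3 were called lower, Ccr2 (by 1.33), Csf2ra (by 1.25) and the chemokine gene Ccl7 (by 1.84). Without Y665F female 3 the lower counts were 13, 4, 4 and 6, among 1495 genes called lower in all, against 1331 with it. Other immune genes were lower alongside, with 7 of 12 T and NK cell genes, 6 of 8 B cell genes and 5 of 9 dendritic cell genes called lower. The T and NK cell genes summed to 31.4 to 44.7 CPM in Y665F females and to 6.34 to 28.2 CPM in Y665H females. Skeletal muscle genes went the other way, with 8 of 12 called higher in Y665H. So did adipocyte genes, with 9 of 10 higher, a median log2 fold change of 0.51 and 2 called. They summed to 19618 to 22027 CPM in Y665H females and to 9271 to 16127 CPM in Y665F females. Of the 9 epithelial genes 8 were lower, with a median of -2.15 and none called by edgeR. The part of these other cells in the marker differences was not tested.

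**Figure D3:**
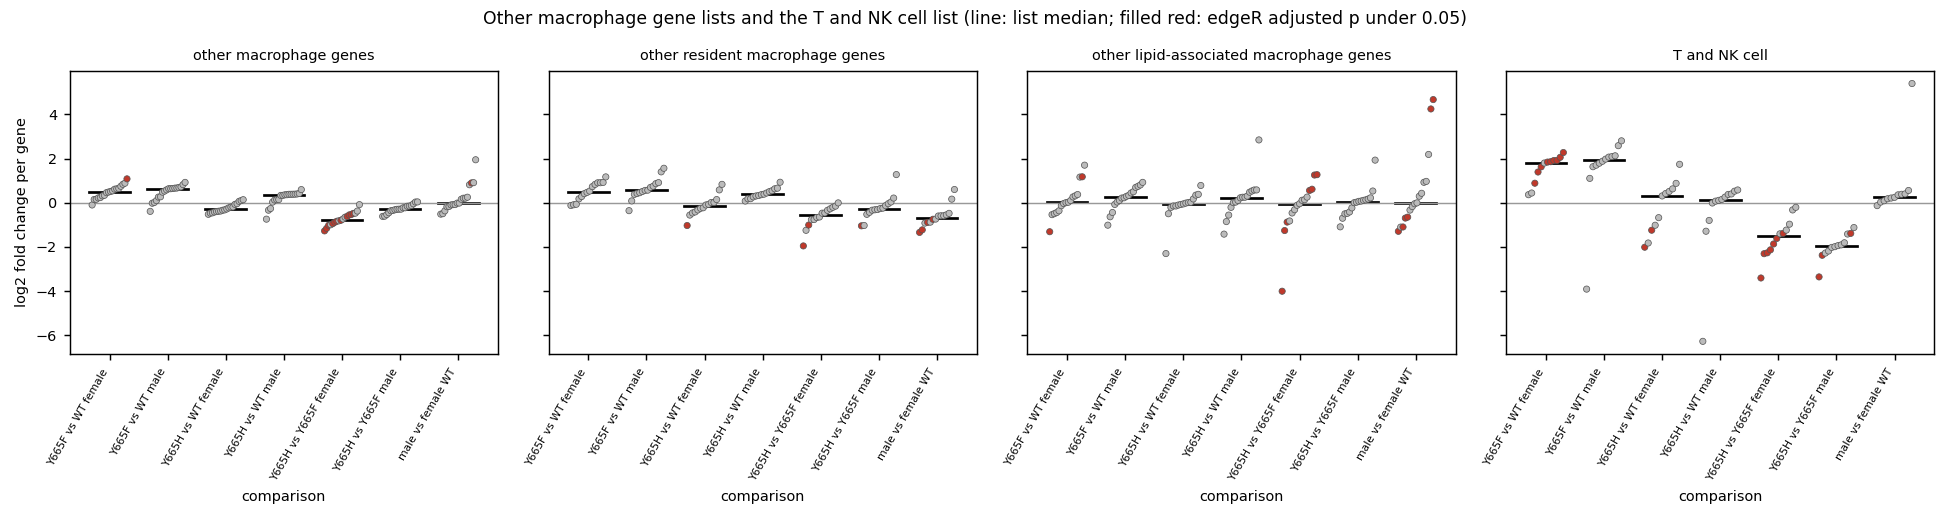
Log2 fold changes (vertical axis) of single genes in 3 further macrophage lists and the T and NK cell list over 7 comparisons (horizontal axis); lines are list medians and red points had an edgeR adjusted p under 0.05. For Y665H against Y665F females, 11 of 18 general macrophage genes are red and below 0, while the lipid-associated genes lie on both sides of 0.

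In males the difference between the mutants had the same sign for Itgax but was not called. The lowest Y665F male, at 32.6 CPM, lay above the highest Y665H male, at 24.2 CPM. Itgax was the 1 marker of 10 separated in this way, against 5.99% of 14533 genes averaging 1 CPM or more. The log2 fold change was -1.16 (SE 0.23, adjusted p = 0.0549 by edgeR). Lyve1 was at 24.7, 40.5, 37.2 and 61.1 CPM in Y665H males and at 21.4, 30.0, 11.5 and 13.9 CPM in Y665F males, which overlapped. Its log2 fold change was 1.03 (SE 0.35, adjusted p = 0.185 by edgeR). Of the 10 markers edgeR called 0, against 1.03% of 15986 genes. DESeq2, which called 1097 genes in all, called 2 markers, Itgax lower and Lyve1 higher in Y665H. At an unadjusted p under 0.05 these were also the 2 markers given by edgeR, against 18% of all genes. The 6 lymphatic endothelial genes, of which 1 had no count in any group, summed to 98.4 to 185.7 CPM in Y665H males and 60.9 to 117.7 CPM in Y665F males, and their part in the Lyve1 difference was not tested.

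Gpnmb and Itgax were higher in WT males than in WT females, while the resident markers lay lower in males without being called. Gpnmb was at 52.8, 89.4, 39.7 and 180.7 CPM in WT males and at 7.92, 6.77, 16.6 and 8.50 CPM in WT females, so every male library was above every female library. Itgax was higher in all WT males as well. Among the resident markers, Timd4 did not overlap, with 1.41 to 4.09 CPM in males and 4.63 to 5.64 CPM in females. Thus 2 of 10 markers were higher in every male, against 19.4% of 15126 genes averaging 1 CPM or more. Lower in every male was 1 of 10, against 6.86% of genes. Cd163 was at 38.9 to 121.6 CPM against 112.0 to 224.5 CPM and Lyve1 at 13.7 to 39.9 CPM against 24.1 to 56.5 CPM, each with some overlap. Of the 10 markers 2 were called, both higher in males, against 13.1% of 15865 genes. Gpnmb was 8.06-fold higher (log2 fold change 3.01, SE 0.50, adjusted p = 0.0134 by edgeR) and Itgax 3.20-fold higher (log2 fold change 1.68, SE 0.37, adjusted p = 0.0282 by edgeR). Cd163 was at a log2 fold change of -1.11 (SE 0.35, adjusted p = 0.0696 by edgeR), Lyve1 at -1.08 (SE 0.37, adjusted p = 0.0843) and Timd4 at -0.95 (SE 0.32, adjusted p = 0.0809). The fat depot is not given for either sex. Epididymis genes summed to 1.30 to 13176 CPM in WT males and to 0.511 to 1.01 CPM in WT females. Muscle genes summed to 22.7 to 31.1 CPM against 94.7 to 918 CPM. A part of depot or dissection was not tested and cannot be told apart from sex here.

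These sex differences were given again without WT males 2 and 3. Gpnmb was then at a log2 fold change of 3.36 (adjusted p = 0.0286 by edgeR) and Itgax at 2.18 (adjusted p = 0.0187 by edgeR), while Cd163, Lyve1 and Timd4 were at -0.70, -0.62 and -0.56. Among single libraries, the call of Itgax was lost without any 1 of the WT females (adjusted p 0.0754 to 0.0872 by edgeR) and that of Gpnmb without WT female 1, 2 or 4 (adjusted p 0.0563 to 0.0634 by edgeR). Calls over all genes in the fits without 1 WT female fell too, from 2079 to between 251 and 404. Cd163 and Timd4 were called by edgeR without WT male 1 (adjusted p 0.0327 and 0.0297), and Lyve1 without WT male 4 (0.0499). Over all genes, 5076 were called without WT male 1 and 1471 without WT male 4, against 2079 with both kept. Melanocyte genes, which bear on Gpnmb, summed to 2.82 to 40.5 CPM in WT males and to 1.36 to 2.904 CPM in WT females. The value of 40.5 CPM came from WT male 2, while the highest Gpnmb level was in WT male 4. The part of melanocyte RNA in the Gpnmb difference was not tested.

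Among further macrophage genes, some resident genes were lower in WT males, and the lipid-associated genes went both ways. Of the 14 resident genes 4 were called lower in males, the carbonyl reductase gene Cbr2 (log2 fold change -1.22), the lectin gene Cd209f (-1.34), the folate receptor gene Folr2 (-0.74) and F13a1 (coagulation factor XIII, -0.89). Without WT males 2 and 3 this count was 1, among 231 genes called lower in all, against 944 with them. Among the 16 lipid-associated genes, the proton pump subunit gene Atp6v0d2 (4.25) and Mmp12 (4.67) were called higher and 4 genes lower, Ctsd and Acp5 among them. Without WT males 2 and 3 the counts were 4 higher and 0 lower by edgeR. Over all genes that fit called 338 higher and 231 lower, against 1135 and 944 with them. Of the 18 general macrophage genes 1, Mpeg1, was called, and it was higher in males (log2 fold change 0.90, SE 0.24, adjusted p = 0.0462 by edgeR). When single libraries were left out, the call of Cbr2 held in all 8 fits, those of Atp6v0d2 and Mmp12 were lost in 4, that of Cd209f in 6 and those of Folr2, F13a1 and Mpeg1 in 7. Those 8 fits called 251 to 5076 genes in all, against 2079 with every library kept. The epithelial genes summed to 77.7 to 1497 CPM in WT males and to 59.6 to 177.5 CPM in WT females, and fibroblast genes were called lower in males for 5 of 8. Muscle genes were called lower in males for 9 of 12, and all 10 adipocyte genes were lower, with a median log2 fold change of -0.72 and none called by edgeR. All 5 lymphatic endothelial genes tested, which bear on Lyve1, were higher in males, with a median of 1.08 and 1 called, Reln. They summed to 112.9 to 146.3 CPM in WT males and to 66.6 to 88.1 CPM in WT females, while Lyve1 itself lay lower in males. Their part in the marker differences was not tested.

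The sexes of the mutants were compared by whether libraries overlapped, without a test, and here too sex cannot be told apart from depot or dissection. In Y665F, Cd68 and Itgax were higher in all 4 males than in all 4 females, 2 of 10 markers against 11.6% of 14509 genes. Cd163 was lower in all Y665F males, 1 of 10 markers against 14.2% of genes. In Y665H, Adgre1, Cd68, Itgax, Gpnmb and Cd9 were higher in all males, 5 of 10 markers against 24.5% of 14248 genes. No marker was lower in all Y665H males, against 9.12% of genes.

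Levels relative to Adgre1 show how the markers moved against a general macrophage gene within the same library. There were 14.2, 9.85, 11.7 and 10.5 Itgax counts per 100 Adgre1 counts in WT females, 16.7, 25.3, 15.4 and 15.6 in Y665F females and 5.99, 6.68, 4.28 and 6.88 in Y665H females. The female groups thus remained apart on this scale. In males Itgax ran from 27.8 to 60.4 counts per 100 Adgre1 counts in WT, from 42.3 to 65.5 in Y665F and from 21.0 to 34.2 in Y665H. All 12 male values except that of Y665H male 2 lay above the highest female value of 25.3. For Lyve1, WT females had 53.6 to 127.9 counts per 100 Adgre1 counts and Y665F females 31.0 to 46.6, with no overlap. WT males had 40.0 to 69.2 against 17.8 to 39.0 in Y665F males. Y665H females had 44.6 to 93.9 and Y665H males 39.6 to 83.2. In CPM, Lyve1 itself overlapped between Y665F and WT in both sexes. Adgre1, the denominator, was higher in every Y665F library than in any WT library of its sex, so it entered these ratios too. For Cd163 the ratio was 278.2 to 368.7 in WT females, 228.5 to 317.8 in Y665F females and 333.0 to 448.3 in Y665H females. These ratios were not tested, no share over all genes was computed for them, and other cells that express the numerator gene enter them too.

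**Figure D4:**
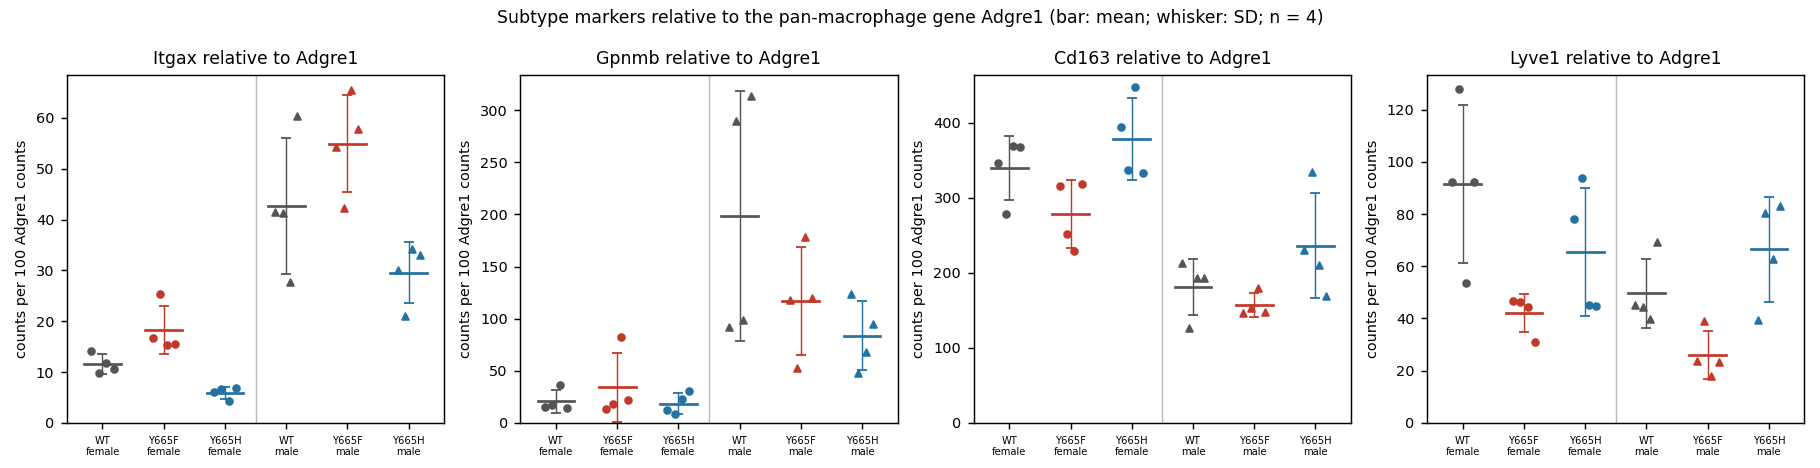
Counts of Itgax, Gpnmb, Cd163 and Lyve1 per 100 Adgre1 counts (linear vertical axes from 0) in each library, by genotype and sex; bars are means and whiskers SD over 4 libraries. Itgax relative to Adgre1 is lowest in Y665H females, between 4.28 and 6.88.

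Cd9 was highest in WT male 2 at 113.1 CPM and in Y665F female 3 at 78.5 CPM, the 2 libraries with the highest epithelial sums. In the other 22 libraries it lay between 13.4 and 51.3 CPM. Epithelial genes were also raised in WT male 3, at 798.9 CPM, where Cd9 was at 35.7 CPM. Y665H male 4 had more Cd9 than Y665H male 3, at 51.3 against 31.1 CPM, with a lower epithelial sum, at 191.7 against 342.5 CPM. The link between Cd9 and epithelial RNA was not tested. Gpnmb did not follow the same order, since its highest value of 180.7 CPM was in WT male 4, with an epithelial sum of 393.1 CPM.

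**Figure D5:**
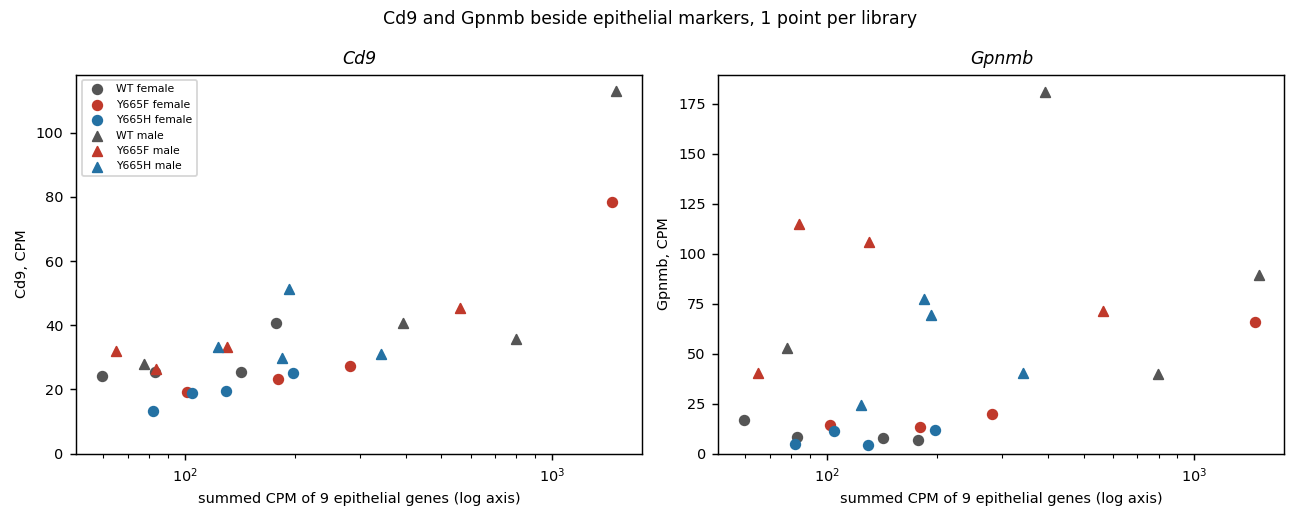
Levels of Cd9 and Gpnmb (vertical axes, CPM) against the summed CPM of 9 epithelial genes (log horizontal axis), 1 point per library. The 2 points farthest right, WT male 2 and Y665F female 3, hold the highest Cd9 levels, 113.1 and 78.5 CPM.

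For each marker, the other genes with the most similar pattern over the 24 libraries were found. These had the smallest root mean square (RMS) difference of centred log2(CPM + 1) values. For this the CPM were TMM-scaled, and the 14792 genes averaging 1 CPM or more on that scale were used. The gene nearest to Itgax was Adam8, a membrane protease gene, with an RMS difference of 0.26, against an RMS of 1.14 for Itgax around its own mean. Adam8 was at 12.8 to 24.4 CPM in Y665F females, 5.26 to 10.0 CPM in WT females and 3.31 to 4.15 CPM in Y665H females. Adgre1 was nearest to Gmfg (0.15) and Mrc1 to the heparanase gene Hpse (0.14), and within the 10 markers these 2 were each other's nearest gene at 0.20. Gpnmb was nearest to Atp6v0d2, at 0.74 against its own RMS of 1.40. The nearest genes were Ifi204 for Cd163 (0.29), Slc11a1 for Cd68 (0.22), Ednrb for Timd4 (0.25), Flrt2 for Lyve1 (0.38 against its own RMS of 0.67), Slc35g1 for Cd9 (0.24) and Aqp5 for Trem2 (0.51 against 0.74). All points share libraries and depth, so these values describe the patterns and were not tested.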

How the data were processed

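The deposited files hold raw counts per gene symbol, 1 file per library, with 24421 symbols and 5 special entries for reads assigned to none of them. Stranded, paired-end libraries were made after removal of ribosomal RNA, per the labels' protocols. The submitters' processing notes name FastQC 0.11.9, Trimmomatic 0.36, STAR, SAMtools 1.9, Picard 2.9.2, HTSeq 0.9.1 and the mm10 build. The annotation and strand setting are not given in the sources used here, so overlapping genes may share or lose reads. The 5 entries held 24.8 to 39.7% of all counts and were left out, and the ribosomal gene Rn45s held 3.27 to 15.0% of gene counts.

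CPM were computed from the sums over gene symbols, and the search for similar patterns used TMM-scaled CPM. Tests used edgeR 4.0.16 (limma 3.58.1, R 4.3.3) with TMM scaling, the default filterByExpr filter and Benjamini-Hochberg adjustment over all genes tested. Each of 7 contrasts used its own 8 libraries and each interaction 16. The alternatives were other scaling, no filter, DESeq2 1.42.0, all 24 libraries in 1 fit, a replicate block and leaving out libraries. The scripts were tested on simulated data. Lengths and gene coordinates came from GENCODE release 21 for mouse (GRCm38, the same assembly as mm10) and promoters from RefSeq.

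The markers and lists were chosen with earlier results of these data known. Fold changes are printed for markers with an unadjusted p under 0.05, and of each other list at most 4 called genes with the smallest p are named per contrast. For each marker the single most similar gene is named, of the 2 found. All single-gene fold changes are relative to TMM scaling. Same-numbered libraries were not taken as pairs.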

Additional observations from a re-analysis of the deposited data

Results flagged for a closer look

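In 7 of the 60 combinations of marker and group, 1 library lay far from the other 3 of its group by Dixon's criterion, which chance alone meets in about 1 of 20 groups. Cd9 gave 4 of them. It was at 113.1 CPM in WT male 2 and at 78.5 CPM in Y665F female 3, the libraries with the highest epithelial sums, at 51.3 CPM in Y665H male 4 and at 40.8 CPM in WT female 2. Gpnmb was at 65.6 CPM in Y665F female 3, against 13.1 to 19.7 CPM in the other Y665F females. Trem2 was at 14.8 CPM in WT male 4, the library that also held the highest Gpnmb, Itgax and Cd68 levels among WT males. Cd68 was at 54.8 CPM in Y665H male 4, the library with the highest Cd9, Trem2, Lyve1 and Timd4 levels of its group.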

How the results depend on the processing

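The number of markers called for Y665F against WT females (1) was 3 under library totals, 3 under DESeq2, 2 with all 24 libraries and 0 to 3 without single libraries. Over all genes these settings called 1164, 2047, 512 and 67 to 747, against 521 in the main fit. For Y665F against WT males (0) it was 2 with all 24 libraries and 0 without any single library, where 2261 and 0 to 570 genes were called in all. For Y665H against WT females (1) it was 0 with all 24 libraries and 0 to 1 without single libraries. There 250 and 20 to 1269 genes were called in all, against 516 in the main fit. For Y665H against Y665F males (0) it was 2 under DESeq2 and 1 with all 24 libraries. There 1097 and 400 genes were called in all, against 164 in the main fit. For WT males against WT females (2) it was 5 under DESeq2, 5 with all 24 libraries and 0 to 4 without single libraries. There 4549, 5987 and 251 to 5076 genes were called in all, against 2079 in the main fit. For Y665H against Y665F females (3) it was 2 to 4 over the alternatives run, with 1554 to 3957 genes called in all, against 2689 in the main fit. For both interactions and Y665H against WT males it was 0 under each alternative. Over all genes, the alternatives called 0 to 1686 for the Y665F interaction and 0 to 1844 for the Y665H interaction. For Y665H against WT males they called 0 to 203. No marker fold change that was printed changed sign under any alternative run.

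Same-numbered libraries did not consistently deviate together, with correlations of -0.40 to 0.71 over the pairs. The number was treated only as a name, and a batch shared by same-numbered libraries was not tested. With the replicate block the markers called were 3 for Y665F against WT females and 0 for Y665H against WT females. Over all genes the block gave 676 and 32 calls in these comparisons, against 521 and 516 without it. For Y665H against Y665F males it gave 0, against 164. Under library totals the median log2 fold change of all genes was 0.15 for Y665F against WT females (0.02 with TMM), -0.18 for Y665H against Y665F females (-0.03) and 0.22 for WT males against females (0.04). The calls over all genes in these comparisons were then 1025 higher and 139 lower (361 and 160 with TMM), 799 and 2406 (1358 and 1331), and 2111 and 674 (1135 and 944). Over all genes, DESeq2 called 2047, 1141, 1760, 119, 3957, 1097 and 4549 genes in the 7 contrasts in the order of the plot of fold changes, against 521, 0, 516, 0, 2689, 164 and 2079 by edgeR. The 4 libraries a group limit all comparisons.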
